A study of Mus musculus with 4 samples.

Results

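The genes described here are Hk1, Hk2, Gpi1, Pfkl, Pfkm, Pfkp, Pfkfb3, Pfkfb4 and Tigar, 9 of the 32285 genes in the count files. They were chosen by name, as enzymes and regulators of the first steps of glycolysis, with earlier results on these data known, and the rule for choosing them uses no measured level. All 9 were found in the files, and all had UMIs in each of the 4 libraries. The name of the group holds for its core: Hk1 and Hk2 are hexokinases and Pfkl, Pfkm and Pfkp are phosphofructokinase subunits, while Gpi1, Pfkfb3, Pfkfb4 and Tigar act between or upon those steps.

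Hexokinases phosphorylate glucose as it enters the cell, so that it can no longer leave through the transporters, and the isomerase Gpi1 turns the product into the substrate of phosphofructokinase. Phosphofructokinase, a tetramer of liver-type (Pfkl), muscle-type (Pfkm) and platelet-type (Pfkp) subunits, makes the committed step of glycolysis. Its strongest activator is a bisphosphate of fructose that Pfkfb3 and Pfkfb4 make or remove, and that Tigar, a p53 target, can also break down. In the avascular cartilage of the limb, glycolysis is a main source of ATP, and several of these genes are known targets of the hypoxia factor HIF.

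The cells come from presumptive knee joint regions of mouse hindlimbs, 1 droplet library per group, and how many embryos went into a library is not stated, although the study's methods name at least 3 per genotype for its experiments in general. Controls carry the genotype label No cre and the title WT, with 1 library for each of the ages E13.5 and E14.5. The remaining libraries, both at E14.5, are labelled Prx1cre;Glut1f/f;Glut3f/+ (below, labelled G1KO) and Prx1cre;Glut1f/f;Glut3f/f (labelled dKO), so they share the Cre and both floxed Glut1 alleles and differ in 1 floxed Glut3 allele. Prx1Cre acts in the limb mesenchyme, from which cartilage, joint, tendon and connective tissue arise, whereas limb muscle, blood and endothelium have other origins.

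In the order control E13.5, control E14.5, labelled G1KO and labelled dKO, which is kept throughout, 12446, 9305, 11264 and 11305 cells passed the filters. Their median depth was 6176.5, 7279, 6757 and 6379 UMIs. Any pair of libraries shared 24 to 37 cell barcodes. The tissue label is Interzone for all 4, but the cells that passed an interzone gate, with Gdf5 and 4 further joint markers, numbered 1767, 794, 905 and 302. That is 14.2%, 8.53%, 8.03% and 2.67% of the kept cells. Cells that passed a gate of 8 cartilage markers, called chondrocyte-like here, numbered 324, 3431, 3040 and 3632. The E13.5 class is small. With scores standardized within each library, in place of over all 4 together, the numbers are 1226, 2642, 2811 and 2707. Between 10.0% and 11.7% of the mesenchymal cells of a library lay near a limit of the gate, so each class has a soft edge.

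The sex of the embryos differs with genotype. Xist, expressed from the inactive X chromosome, stood at 790.1, 0.202, 986 and 888 CPM. The summed level of 4 Y-linked genes, Ddx3y, Eif2s3y, Kdm5d and Uty, was 44.1, 165, 0.0431 and 0.0340 CPM. The E14.5 control thus holds Y-linked RNA and almost no Xist, and both mutant-labelled libraries hold Xist and almost no Y-linked RNA. Sex and genotype cannot be told apart in any comparison with the E14.5 control, and the same single control library stands in the comparison of ages and in both comparisons of genotype.

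Slc2a1, the gene of the transporter Glut1 that the floxed alleles target, was counted at 48.1, 64.7, 339 and 428 CPM over all kept cells. It was higher, not lower, in the libraries labelled as carrying floxed Glut1 and Cre. In chondrocyte-like cells its levels were 103, 86.0, 486 and 504 CPM, which gives log2 ratios to the E14.5 control of 2.50 (95% interval 2.44 to 2.56) for labelled G1KO and 2.55 (2.49 to 2.61) for labelled dKO. Every interval given with a ratio, level or share comes from the counts alone and measures nothing but their sampling error. In interzone-like cells the levels were 53.8, 44.5, 213 and 185 CPM, and the intervals of both ratios lay above 0 in 8 of 8 mesenchymal classes. UMIs of this kit are read at the 3′ end of a transcript, and a 3′ tag outside the deleted part of a gene checks nothing about a deletion. The position of the loxP sites is not given in the sources used here. Slc2a3, the gene of Glut3, was counted at 5.13, 3.38, 4.32 and 2.70 CPM over all kept cells and at 3.50, 2.71, 3.30 and 1.40 CPM in chondrocyte-like cells. Its log2 ratio in chondrocyte-like cells was -0.96 (-1.50 to -0.43) for labelled dKO over control and -1.24 (-1.78 to -0.72) for labelled dKO over labelled G1KO. Across the 8 mesenchymal classes the interval to control was below 0 in 1 and above 0 in 0, and fibroblast-like cells had 0.14. To labelled G1KO it was below 0 in 3 and above 0 in 0. The genotypes below are therefore those of the labels.

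Over all kept cells, Hk1 stood at 20.0, 27.4, 26.2 and 24.8 CPM and Hk2 at 35.7, 105, 173 and 134 CPM. Hk2, the hexokinase that is inducible in many tissues, is thus the member that differs most between the libraries in absolute level, with the lowest value at E13.5 and the highest in labelled G1KO. Gpi1, the isomerase, was the most abundant member in UMIs, at 181, 192, 202 and 226 CPM. Pfkl was counted at 109, 91.2, 95.3 and 106 CPM, Pfkm at 16.7, 15.2, 15.3 and 14.0 CPM, and Pfkp at 5.34, 10.8, 18.7 and 20.7 CPM. Among the phosphofructokinase subunits, Pfkp alone was more than 1.5-fold apart between controls and the mutant-labelled libraries over all kept cells. The regulators were scarce: Pfkfb3 stood at 6.14, 7.67, 8.42 and 9.57 CPM, Pfkfb4 at 8.004, 6.39, 5.68 and 6.28 CPM, and Tigar at 1.69, 1.69, 1.44 and 0.874 CPM.

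Shares of UMIs within a family, each UMI being 1 molecule, show which form dominates. Hk2 held 65.3%, 79.6%, 87.2% and 84.8% of the Hk1 and Hk2 UMIs of all mesenchymal cells, so Hk2 was the major hexokinase transcript in every library. Its share was 81.0%, 81.1%, 89.2% and 86.2% in chondrocyte-like cells and 57.2%, 71.4%, 80.7% and 74.3% in interzone-like cells. In fibroblast-like cells at E13.5, Hk2 held 46.5%, the only mesenchymal class and library where Hk1 UMIs outnumbered it, and there the share was 79.1% at E14.5. Pfkl was the main phosphofructokinase transcript, with 83.5%, 77.9%, 73.5% and 75.4% of the UMIs of the 3 subunits in mesenchyme. Pfkp held 4.06% (3.70 to 4.44), 9.18% (8.59 to 9.80), 14.6% (14.0 to 15.3) and 14.6% (14.0 to 15.2). In mesenchyme as a whole, the mix of subunits therefore held less Pfkl and more Pfkp at E14.5 than at E13.5, and more Pfkp again in both mutant-labelled libraries. The mix of classes also differs between libraries, and its part in these shares was not tested. By class, the interval of the Pfkp ratio to the E14.5 control was above 0 in 4 of 8 for each mutant-labelled library. Interzone-like cells held Pfkp at 12.2, 11.5 and 13.2 CPM in the 3 libraries of E14.5. Pfkm, the muscle-type subunit, had 12.4%, 12.9%, 11.9% and 10.0%. Of the bifunctional enzymes, Pfkfb3 held 42.8%, 54.4%, 59.7% and 60.1% of the Pfkfb3 and Pfkfb4 UMIs, while their summed level was 14.95, 14.8, 14.6 and 16.1 CPM.

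**Figure D1:**
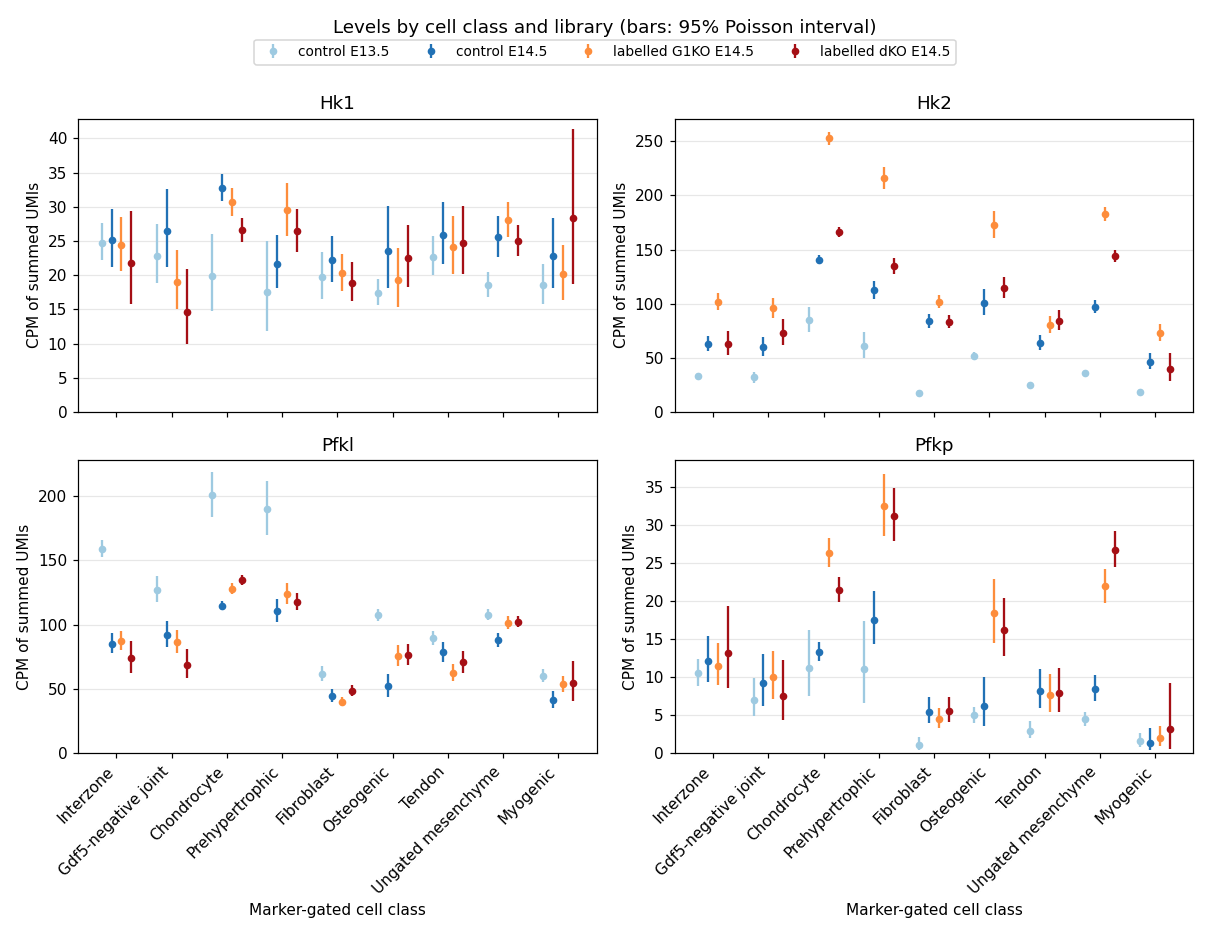
Levels (vertical axis, CPM of summed UMIs) of Hk1, Hk2, Pfkl and Pfkp in 9 marker-gated cell classes (horizontal axis) of the 4 libraries (colours), with bars for the 95% Poisson interval of the counts. Hk2 is highest in chondrocyte-like cells of labelled G1KO at 253 CPM, Pfkl in chondrocyte-like cells at E13.5 at 201 CPM, and Pfkp in prehypertrophic-like cells of labelled G1KO at 32.4 CPM.

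The levels of Hk2 were set in order over 8 mesenchymal classes in each library. Its highest level was in chondrocyte-like cells in all 4 libraries, at 84.7, 141, 253 and 166 CPM, and the highest class stood 4.95-fold, 2.34-fold, 3.14-fold and 2.64-fold above the lowest. At E13.5 the order ran from chondrocyte-like over prehypertrophic-like (61.3 CPM) and osteogenic-like cells (51.8) to ungated mesenchyme (36.4), interzone-like (33.1), Gdf5-negative joint (31.9), tendon-like (24.5) and fibroblast-like cells (17.1). Only osteogenic-like against ungated and tendon-like against fibroblast-like cells had intervals apart among these neighbours, so 2 of 7. At E14.5 in the control, chondrocyte-like cells stood apart from prehypertrophic-like (112 CPM), osteogenic-like (101) and ungated cells (97.3), which overlapped as neighbours. These were followed by fibroblast-like cells (83.9) and by tendon-like (64.0), interzone-like (62.9) and Gdf5-negative joint cells (60.0), the last 3 overlapping. Interzone-like cells thus lay in the lower part of the order in both controls, below every cartilage class. In labelled G1KO the order began with chondrocyte-like, prehypertrophic-like (216) and ungated cells (183), and in labelled dKO with chondrocyte-like, ungated (144) and prehypertrophic-like cells (135), with 3 of 7 neighbours apart in each.

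Pfkl had the same ends of the order in every library. Chondrocyte-like cells were highest at 201, 115, 128 and 135 CPM and fibroblast-like cells lowest at 61.9, 44.9, 40.2 and 48.7 CPM, with 5, 1, 3 and 4 of 7 neighbours apart. Pfkp was lowest in fibroblast-like cells, at 1.06, 5.48, 4.46 and 5.59 CPM, and highest in prehypertrophic-like cells of the 3 libraries of E14.5, at 17.6, 32.4 and 31.2 CPM. Its neighbours were apart in 0, 0, 3 and 1 of 7 cases. For Hk1, Pfkm, Pfkfb3 and Tigar no neighbours were apart in any library, and for Pfkfb4 only 1 pair was, in labelled dKO. Gpi1 had 2, 1, 2 and 3 pairs of neighbours apart. At E13.5 its levels in interzone-like (243 CPM) and chondrocyte-like cells (234 CPM) headed its order and overlapped, and in labelled dKO interzone-like cells were last, at 149.8 CPM, overlapping with fibroblast-like cells. Pfkfb3 was highest in interzone-like cells of both controls, at 9.39 and 11.6 CPM, and Hk1 in those of E13.5, at 24.8 CPM, each overlapping with the next class. In the prehypertrophic-like cells of E13.5, Tigar had 0 UMIs, where the floor of 3 counts is 1.75 CPM.

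Outside the mesenchyme, in myogenic cells, Hk2 stood at 18.5, 46.4, 73.3 and 40.0 CPM, Hk1 at 18.5, 22.8, 20.1 and 28.4 CPM, and Pfkp at 1.62, 1.42, 1.99 and 3.16 CPM. Pfkm, although named for muscle, was not high there, at 15.1, 11.4, 8.36 and 4.21 CPM. Endothelial cells held Pfkp at 19.0, 19.6 and 31.9 CPM in the control of E13.5, labelled G1KO and labelled dKO, and the E14.5 control had fewer than 50 of them. Macrophages held Hk2 at 72.9, 97.6 and 56.9 CPM in the libraries of E14.5.

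Interzone-like cells held less Hk2 and less Pfkl than chondrocyte-like cells of the same control library at both ages. Pfkfb4, Tigar and Pfkfb3, all acting on the activator of phosphofructokinase, lay the other way at E14.5. At E13.5, 1 of 8 tested members was at least 1.5-fold higher in interzone-like cells, where 22.1% of all 10980 tested genes were. There 1 of 8 was at least 1.5-fold lower, where 8.95% of genes were. At E14.5, 2 of 9 were higher and 1 of 9 lower, where 23.6% and 9.83% of 12028 genes were. With so few members the counts cannot be read as more than a description beside these shares.

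For Hk2, 33.1 CPM in interzone-like against 84.7 CPM in chondrocyte-like cells at E13.5 is a log2 ratio of -1.36 (-1.59 to -1.12), and 62.9 against 141 CPM at E14.5 is one of -1.16 (-1.32 to -1.003). Both ratios lie past 1.5-fold on the lower side, and with TMM factors they were -1.53 and -1.42. Slc2a1, which brings in the glucose that hexokinase traps, had log2 ratios of -0.94 and -0.95. Hk1, the more constant hexokinase, had ratios of 0.32 (-0.11 to 0.78) at E13.5 and -0.38 (-0.64 to -0.13) at E14.5, the latter -0.64 with TMM factors. For Pfkl, 159 against 201 CPM at E13.5 gave -0.33 (-0.47 to -0.19), and 85.4 against 115 CPM at E14.5 gave -0.43 (-0.57 to -0.29), or -0.51 and -0.69 with TMM factors. The subunits Pfkm and Pfkp had intervals that include 0 at both ages, though Pfkm at E13.5, with -0.43 (-0.87 to 0.03), had -0.61 and was past 1.5-fold with TMM factors.

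Pfkfb4, a bifunctional enzyme, was counted at 9.83 CPM in interzone-like and 4.16 CPM in chondrocyte-like cells at E14.5, with a log2 ratio of 1.24 (0.76 to 1.71), but at 5.83 CPM in both classes at E13.5. Tigar stood at 2.50 against 1.13 CPM at E14.5, a ratio of 1.14 (0.14 to 2.07) that rests on 50 UMIs, the least that was tested, and was not tested at E13.5, where both sums together held 22 UMIs. Pfkfb3 stood at 9.39 against 5.83 CPM at E13.5, a ratio of 0.69 (-0.09 to 1.57) past 1.5-fold, and at 11.6 against 8.13 CPM at E14.5, a ratio of 0.51 (0.10 to 0.91). With TMM factors the ratios of E14.5 were 0.98 for Pfkfb4, 0.88 for Tigar and 0.26 for Pfkfb3, and the one of Pfkfb3 at E13.5 was 0.51, no longer past 1.5-fold. It was 0.36 with scores standardized within each library. TMM factors moved the median of all genes by -0.18 and -0.26 in these comparisons, and the share of higher genes among those past 1.5-fold from 71.2% to 55.2% at E13.5 and from 70.6% to 47.8% at E14.5.

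Counts in the lists, here and below, are a description to be read beside the shares of all genes given with each comparison. Of the list of lower glycolysis, 0 of 10 tested genes were higher in interzone-like cells and 2 lower at E13.5, with a median log2 ratio of -0.23 beside 0.12 over all genes. At E14.5 0 of 11 were higher and 2 lower, with a median of -0.25 beside 0.18. With TMM factors 0 were higher and 3 lower at E13.5, and 0 and 4 at E14.5. The lower ones on the plain scale were the aldolase Aldoc (-0.79 and -0.96) and the phosphoglycerate kinase Pgk1 (-0.63 and -0.68). Of the branches that leave glucose 6-phosphate and fructose 6-phosphate, 2 of 15 were higher and 2 lower at E13.5, and 1 and 2 at E14.5, or 1 and 4 at both ages with TMM factors. They include the hexosamine enzymes Gfpt2 (-1.48 and -1.68) and Gfpt1 (-1.14 at E13.5) and the phosphoglucomutase-family gene Pgm2 (0.92 and 1.17). HIF targets outside glycolysis had 5 of 17 higher and 4 lower at E13.5 and 4 higher and 4 lower at E14.5. With TMM factors these counts were 4 and 4, and 2 and 6. Of all genes, 22.1% were higher and 8.95% lower at E13.5, and 23.6% and 9.83% at E14.5. With TMM factors 1850 of 10980 genes were higher and 1503 lower at E13.5, and 1846 and 2012 of 12028 at E14.5. Of the p53 targets, 2 of 9 were higher and 1 lower at E13.5 and 3 higher and 1 lower at E14.5 (2 and 2 with TMM factors), led by Trp53inp1 (2.89 and 3.14) and Btg2 (1.21 and 0.84). Fbp2, a muscle-type fructose bisphosphatase that runs opposite to phosphofructokinase, was counted at 22.4 CPM in interzone-like cells at E13.5 and with 0 UMIs in chondrocyte-like cells, at least 19.2-fold against a floor of 3 counts. At E14.5 it stood at 18.9 and 6.46 CPM, a log2 ratio of 1.55. Of its list of other hexokinase, gluconeogenic and bifunctional genes, 2 of 2 were higher at E13.5, the other being Fbp1 at 1.25 (-0.19 to 3.19), and 1 of 3 higher and 0 lower at E14.5 (1 and 1 with TMM factors).

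Between the ages, Hk2 was higher and Pfkl lower in the E14.5 control than in the E13.5 control, in every mesenchymal class. Hk2 ratios had intervals above 0 in 8 of 8 classes, from 0.73 in chondrocyte-like to 2.29 in fibroblast-like cells, and Pfkl ratios had intervals below 0 in 8 of 8, from -1.05 in osteogenic-like to -0.19 in tendon-like cells. In chondrocyte-like cells 2 of 8 tested members were at least 1.5-fold higher and 1 of 8 lower, where 10.8% and 10.6% of 11664 genes were. In interzone-like cells 2 of 8 were higher and 1 of 8 lower, where 8.46% and 8.04% of 11390 genes were. The osteogenic-like gate, which gave the Pfkl extreme, did not hold like cells in both controls. It took in 17.7% of the kept cells of the younger library but 3.21% of the older. The median score of these cells for the fibroblast markers was -0.16 in the younger library and 1.28 in the older. The part of this difference in the osteogenic-like ratios was not tested. Age is a comparison of single libraries that also differ in Xist and Y-linked levels, as given above, and the part of sex was not tested.

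In chondrocyte-like cells, Hk2 went from 84.7 to 141 CPM with age, a log2 ratio of 0.73 (0.53 to 0.93), and Hk1 from 19.8 to 32.8 CPM, also 0.73 (0.32 to 1.16). Pfkl went from 201 to 115 CPM, a ratio of -0.80 (-0.94 to -0.67), so the hexokinases and the main phosphofructokinase subunit lay on opposite sides. Gpi1, between them in the pathway, had -0.16 (-0.28 to -0.03). With TMM factors the ratios of Hk2, Hk1 and Pfkl were 0.86, 0.85 and -0.68, that of Pfkfb3 reached 0.60, and the share of higher genes among those past 1.5-fold went from 50.4% to 65.9%. The chondrocyte-like gate itself differs between the ages, with a median score of 0.97 in 324 cells and 1.29 in 3431. Its 8 markers, none at 0 and with Col2a1 the most abundant, summed to 9764 CPM at E13.5 and 14449.9 CPM at E14.5, and the part of this difference in the ratios was not tested. With scores standardized within each library, Pfkp had a ratio of 0.87 and Pfkfb4 of -0.63, both then past 1.5-fold.

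In interzone-like cells, Hk2 went from 33.1 to 62.9 CPM, a log2 ratio of 0.93 (0.72 to 1.13), and Pfkl from 159 to 85.4 CPM, a ratio of -0.90 (-1.04 to -0.75). Pfkfb4 went from 5.83 to 9.83 CPM, a ratio of 0.75 (0.23 to 1.27). That ratio is short of 1.5-fold in other interzone gates, at 0.34 without the need of a Gdf5 UMI and 0.49 in any mesenchymal cell with one. Hk1 stood at 24.8 and 25.2 CPM there, a ratio of 0.03, so its age difference in chondrocyte-like cells had no counterpart of that size. Gpi1 had -0.32 (-0.42 to -0.22). Pfkp ratios were above 0 in 8 of 8 mesenchymal classes, from 0.21 in interzone-like to 2.37 in fibroblast-like cells, with the interval above 0 in 3.

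Of lower glycolysis, 0 of 11 genes were higher and 2 lower at E14.5 in chondrocyte-like cells, with a median log2 ratio of -0.35 beside -0.09 over all genes, and with TMM factors 1 was higher and 1 lower. In interzone-like cells 0 of 11 were higher and 3 lower, with a median of -0.32 beside -0.02, and 0 and 2 with TMM factors. The enolase Eno1 (-1.58 and -1.71) and the lactate dehydrogenase subunit Ldhb (-0.71 and -0.78) were lower in both classes, and the aldolase Aldoa (-0.59) in interzone-like cells. HIF targets had 3 of 17 higher and 1 lower in each class. The p53 target Cdkn1a, a cell cycle inhibitor, had ratios of 1.92 and 1.83, with 2 of 8 targets higher and 1 lower (3 and 1 with TMM factors) in chondrocyte-like and 3 of 9 higher and 0 lower in interzone-like cells. Of the branch genes, Gys1, the glycogen synthase, was lower in chondrocyte-like cells (-0.93), the only one of 15 past 1.5-fold there (with TMM factors 1 was higher and 1 lower), and 0 were in interzone-like cells. Fbp2 was at least 5.54-fold higher at E14.5 in chondrocyte-like cells, against the floor of 3 counts. Its list had 2 of 3 higher there, with Fbp1 at 1.20 and an interval that includes 0, and 1 lower, or 2 and 0 with TMM factors. In interzone-like cells 0 of 2 were past 1.5-fold.

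**Figure D2:**
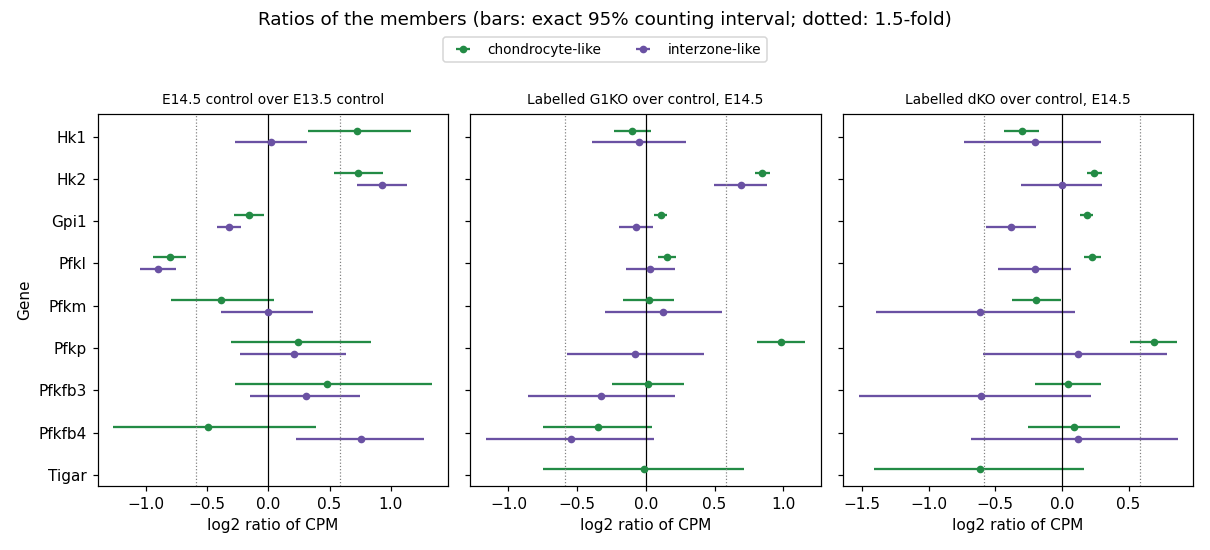
Log2 ratios of CPM (horizontal axis) of the tested members (vertical axis) for age, labelled G1KO and labelled dKO, each with the E14.5 control, in chondrocyte-like and interzone-like cells (colours), with bars for the 95% counting interval and dotted lines at 1.5-fold. Hk2 lies at 0.73 and 0.93 for age, at 0.85 and 0.69 for labelled G1KO, and at 0.24 and 0.00 for labelled dKO.

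In the library labelled G1KO, Hk2 was higher than in the E14.5 control in every mesenchymal class. Pfkp was higher, with intervals above 0, in cartilage, osteogenic-like and ungated classes. Its interval was not above 0 in interzone-like, Gdf5-negative joint, tendon-like and fibroblast-like cells. Chondrocyte-like cells had 2 of 9 members at least 1.5-fold higher and 0 of 9 lower, where 2.6% and 4.88% of 12544 genes were. Interzone-like cells had 1 of 8 higher and 0 of 8 lower, where 1.55% and 6.78% of 10400 genes were. The higher counts rest on Hk2 and Pfkp alone, and the other 7 members of chondrocyte-like cells lay within 1.5-fold.

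Hk2 stood at 141 CPM in control and 253 CPM in labelled G1KO chondrocyte-like cells, 1.80-fold or a log2 ratio of 0.85 (0.79 to 0.90). In interzone-like cells 62.9 and 101 CPM gave 0.69 (0.50 to 0.88), or 0.58 and short of 1.5-fold with the mean over single cells, and the interval lay above 0 in 8 of 8 mesenchymal classes, from 0.28 in fibroblast-like to 0.94 in prehypertrophic-like cells. Hk1 stood at 32.8 and 30.7 CPM in chondrocyte-like cells, a ratio of -0.10 (-0.23 to 0.03), so the 2 hexokinases differ in how they stand between these libraries. Pfkp stood at 13.3 and 26.3 CPM in chondrocyte-like cells, 1.98-fold, a ratio of 0.98 (0.81 to 1.16). In interzone-like cells Pfkp stood at 12.2 and 11.5 CPM, from 68 and 72 UMIs, a ratio of -0.08 (-0.57 to 0.42). Its interval was above 0 in 4 of 8 classes, with ratios from -0.30 in fibroblast-like to 1.55 in osteogenic-like cells. Pfkl had 0.15 (0.09 to 0.22) and Gpi1 0.11 (0.06 to 0.16) in chondrocyte-like cells, both small beside Hk2 and Pfkp.

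The scarce regulator Pfkfb4 had ratios of -0.35 (-0.75 to 0.05) in chondrocyte-like and -0.55 (-1.16 to 0.06) in interzone-like cells, with intervals that include 0. With TMM factors Hk2 had 0.93 in chondrocyte-like and 0.81 in interzone-like cells and Pfkp 1.07 in chondrocyte-like cells. The median of all genes moved by 0.12 in interzone-like cells. The share of higher genes among those past 1.5-fold went from 34.8% to 49.9% in chondrocyte-like and from 18.6% to 40.1% in interzone-like cells.

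Of the HIF targets outside glycolysis, 7 of 18 were higher in chondrocyte-like cells of labelled G1KO and 0 lower, also with TMM factors, with a median log2 ratio of 0.37 beside -0.10 over all genes. They include the peptide hormone gene Adm (2.93), the carbonic anhydrase Car9 (1.99) and Ankrd37 (0.98). In interzone-like cells 2 of 18 were higher, Car9 (1.97) and Adm (0.84), and 0 lower, with a median of -0.01 beside -0.13. Lower glycolysis had 0 of 11 past 1.5-fold in chondrocyte-like cells, with a median of 0.04 and Aldoa at 0.57, or 1 higher with TMM factors, and 0 of 10 higher and 1 lower in interzone-like cells, Aldoc at -1.12. Of the branches, Gys1 (1.19) was higher and the pentose phosphate enzyme Taldo1 (-0.61) lower in chondrocyte-like cells, where TMM factors leave 1 higher and 0 lower, and 0 of 15 were past 1.5-fold in interzone-like cells. Of 9 p53 targets tested, 1 was higher in chondrocyte-like cells, Trp53inp1 (0.89), or 2 with TMM factors, and 0 were past 1.5-fold in interzone-like cells.

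In the library labelled dKO, the difference of Hk2 from the control was smaller than in labelled G1KO in 7 of 8 mesenchymal classes, and Pfkp was past 1.5-fold in chondrocyte-like cells. Interzone-like cells, only 302 in this library, had no member at least 1.5-fold higher. Chondrocyte-like cells had 1 of 9 members at least 1.5-fold higher and 1 of 9 lower, where 3.86% and 12.8% of 12609 genes were. Interzone-like cells had 0 of 8 higher and 2 of 8 lower, where 2.64% and 11.7% of 9457 genes were.

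Hk2 stood at 141 CPM in control and 166 CPM in labelled dKO chondrocyte-like cells, with a log2 ratio of 0.24 (0.18 to 0.30). In interzone-like cells the values were 62.9 and 63.0 CPM, and the interval lay above 0 in 4 of 8 mesenchymal classes, with ratios from -0.01 in fibroblast-like to 0.57 in ungated cells. Pfkp stood at 13.3 and 21.5 CPM in chondrocyte-like cells, 1.61-fold, a ratio of 0.69 (0.51 to 0.86), and at 12.2 and 13.2 CPM in interzone-like cells, a ratio of 0.12 (-0.59 to 0.79). The ratio of this platelet-type subunit in chondrocyte-like cells falls short of 1.5-fold at 0.45 with the mean over single cells, at 0.57 without the cells with the most UMIs and at 0.56 with scores standardized within each library. Its interval was above 0 in 4 of 8 classes, up to 1.66 in ungated cells. Pfkl had 0.23 (0.16 to 0.29) and Hk1 -0.30 (-0.43 to -0.17) in chondrocyte-like cells, both within 1.5-fold. Gpi1 went from 211 to 239 CPM in chondrocyte-like cells, a ratio of 0.18 (0.14 to 0.23), and from 195 to 149.8 CPM in interzone-like cells, a ratio of -0.38 (-0.57 to -0.19).

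In chondrocyte-like and interzone-like cells, the members past 1.5-fold on the lower side rest on few UMIs. Tigar, which removes the activator of phosphofructokinase, had 25 UMIs in labelled dKO and 36 in control chondrocyte-like cells, with a log2 ratio of -0.61 (-1.41 to 0.16). In interzone-like cells Pfkm had 20 and 87 UMIs, a ratio of -0.61 (-1.39 to 0.10), and Pfkfb3 15 and 65 UMIs, a ratio of -0.61 (-1.53 to 0.22). All 3 intervals include 0. Across the 8 mesenchymal classes the interval of Pfkfb3 was above 0 in 2 and below 0 in 0. Osteogenic-like cells had 1.21 (0.22 to 2.31) and ungated cells, with 287 and 77 UMIs, 1.16 (0.79 to 1.54). For Tigar the interval was below 0 in 2 of the 8 classes and above 0 in 0. For Pfkm it was below 0 in 1 and above 0 in 0. Tigar over all mesenchymal cells stood at 1.61 (1.33 to 1.92) CPM in the E14.5 control and 0.80 (0.62 to 1.01) CPM in labelled dKO. Without the need of a Gdf5 UMI the ratios of Pfkm and Pfkfb3 were -0.08 and -0.03, and with scores standardized within each library that of Tigar was -0.42. Over the alternatives the ratio of Tigar in chondrocyte-like cells ran from -0.84 to -0.42. With TMM factors Tigar had -0.45, Pfkm -0.52 and Pfkfb3 -0.51, no longer past 1.5-fold, while Hk2 and Pfkp in chondrocyte-like cells had 0.40 and 0.85. TMM factors moved the median of all genes by 0.16 in chondrocyte-like cells. The share of higher genes among those past 1.5-fold went from 23.2% to 44.0% there and from 18.4% to 31.7% in interzone-like cells. The interzone gate is also weaker in this library, with a median score of 1.61 beside 2.24 in the control, and the part of this in the ratios was not tested.

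Of lower glycolysis, 1 of 11 genes was higher in chondrocyte-like cells of labelled dKO and 0 lower, with a median log2 ratio of 0.06 beside -0.17 over all genes and Aldoa at 0.60. In interzone-like cells 0 of 9 were higher and 3 lower, with a median of -0.27 beside -0.10: the pyruvate kinase Pkm (-0.64), the lactate dehydrogenase subunit Ldha (-0.64) and Eno1 (-0.60). With TMM factors 0 of these 9 were past 1.5-fold, with a median of -0.18. HIF targets had 4 of 18 higher and 1 lower in chondrocyte-like cells, with a median of 0.31, and 7 higher and 1 lower with TMM factors, with a median of 0.48. Adm (2.40) and Car9 (1.07) were higher, and the repressor Bhlhe40 (-1.24) lower. In interzone-like cells 0 of 15 were higher (1 with TMM factors) and 1 lower, the mitophagy gene Bnip3 (-0.87). The p53 targets Sesn2 (1.12) and Cdkn1a (0.87) were the 2 of 9 higher in chondrocyte-like cells, and Cdkn1a (1.14) the 1 in interzone-like cells (2 with TMM factors), while 0 were lower in either. Gys1 (0.82) was higher in chondrocyte-like cells, and in interzone-like cells the pentose phosphate enzyme Rpe (-0.79) was lower and the glycogen branching enzyme Gbe1 (0.61) higher. Fbp2 (-1.26) and Fbp1 (-0.78), which run opposite to phosphofructokinase, were lower in chondrocyte-like cells, 2 of 5 tested in their list.

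Set directly against each other, the library labelled dKO held less Hk2 than the library labelled G1KO in most mesenchymal classes. The interval of the ratio lay below 0 in 7 of 8 classes, from -0.69 in interzone-like cells, and tendon-like cells had 0.07. Chondrocyte-like cells had 0 of 9 members at least 1.5-fold higher and 2 of 9 lower, where 2.41% and 5.23% of 12467 genes were. Interzone-like cells had 1 of 8 higher and 2 of 8 lower, where 3.66% and 5.72% of 9438 genes were. Xist and Y-linked levels are alike in these libraries, and neither is a control.

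In chondrocyte-like cells Hk2 stood at 253 CPM in labelled G1KO and 166 CPM in labelled dKO, a log2 ratio of -0.61 (-0.66 to -0.56) that TMM factors take to -0.53, short of 1.5-fold. In interzone-like cells 101 and 63.0 CPM gave -0.69 (-0.98 to -0.41), but -0.54 without the need of a Gdf5 UMI, -0.42 with scores standardized within each library and -0.25 in any mesenchymal cell with a Gdf5 UMI. Pfkp had -0.30 (-0.44 to -0.15) in chondrocyte-like cells, but its ratios were above 0 in 4 of 8 mesenchymal classes, with 1 interval above 0 and 1 below, and over all kept cells it stood at 18.7 and 20.7 CPM. Tigar had -0.60 (-1.41 to 0.20) in chondrocyte-like cells, or -0.52 with TMM factors and -0.37 with scores standardized within each library. Over the alternatives this ratio ran from -1.05 to -0.37. Over all kept cells Tigar stood at 1.44 (1.21 to 1.71) CPM in labelled G1KO and 0.874 (0.69 to 1.09) CPM in labelled dKO. In interzone-like cells Pfkm had -0.74 (-1.51 to -0.04) and Pfkfb4 0.67 (-0.16 to 1.45), from 17.0 to 10.2 CPM and from 6.72 to 10.7 CPM. In the other 3 interzone gates just named, none of Hk2, Pfkm and Pfkfb4 was past 1.5-fold. The share of higher genes among those past 1.5-fold in chondrocyte-like cells went from 31.6% to 44.98% with TMM factors. Of the HIF targets, 0 were higher and 2 lower in each class, with Car9 at -0.91 and -1.52, Bhlhe40 at -0.95 in chondrocyte-like and Bnip3 at -0.62 in interzone-like cells. Of lower glycolysis, 0 of 11 genes were past 1.5-fold in chondrocyte-like cells, and 0 of 9 were higher and 1 lower in interzone-like cells, Eno1 at -0.64. In the branches, 0 of 15 were past 1.5-fold in both classes, or 1 lower in interzone-like cells with TMM factors. The p53 targets had 1 higher and 1 lower in chondrocyte-like cells (1 and 0 with TMM factors) and 1 of 8 higher in interzone-like cells, Cdkn1a at 0.87. Fbp2 had -0.85 in chondrocyte-like cells, the 1 of 5 lower in its list.

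Myogenic cells do not arise from the mesenchyme in which Prx1Cre acts, and higher Slc2a1 was measured in them too. Slc2a1 stood at 28.1, 24.8, 61.3 and 78.9 CPM in them, with log2 ratios to the E14.5 control of 1.31 (0.96 to 1.67) and 1.67 (1.21 to 2.13). Hk2 had 0.66 (0.39 to 0.93) for labelled G1KO over control and -0.22 (-0.77 to 0.30) for labelled dKO over control. For labelled G1KO, 1 of 5 tested members was at least 1.5-fold higher and 0 of 5 lower, where 2.79% and 3.18% of 8564 genes were. For labelled dKO, with 88 myogenic cells, 0 of 4 were higher and 0 of 4 lower, where 2.99% and 8.28% of 6856 genes were. The share of higher genes among those past 1.5-fold went from 46.8% to 64.3% with TMM factors for labelled G1KO, where Hk2 then had 0.73. Without the cells with the most UMIs it had 0.42, short of 1.5-fold, and Pfkm had -0.71 in place of -0.45. Lower glycolysis had 0 of 9 genes past 1.5-fold in both, with medians of 0.34 and 0.10 beside -0.04 and -0.02 over all genes. Of these 9 genes, 9 lay above 0 for labelled G1KO and 7 for labelled dKO.

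RNA of cartilage markers was also counted in cells of other lineages. The 8 chondrocyte markers, none at 0 and with Col2a1 the most abundant, summed to 448, 635, 1123 and 763 CPM in myogenic cells, beside 9764, 14449.9, 13449.8 and 12151 CPM in chondrocyte-like cells. In interzone-like cells they summed to 1474, 1800.4, 2559.8 and 2006 CPM, so this sum and Hk2 are both highest in labelled G1KO in these cells and in myogenic cells. Hk2 UMIs per 1000 chondrocyte-marker UMIs were 8.68, 9.73, 18.8 and 13.7 in chondrocyte-like cells, 22.5, 34.9, 39.6 and 31.4 in interzone-like cells, and 41.3, 73.1, 65.2 and 52.4 in myogenic cells. In erythroid cells, which make little new RNA, Hk2 stood at 8.86, 13.0 and 63.4 CPM and the markers at 735, 1359 and 3969 CPM in the first 3 libraries, and labelled dKO had fewer than 50 such cells. Slc2a1 in erythroid cells stood at 43.4, 20.1 and 132 CPM. In endothelial cells the markers summed to 263, 946 and 466 CPM in control E13.5, labelled G1KO and labelled dKO. Hk2 stood there at 13.2, 32.3 and 23.6 CPM, from 9, 23 and 17 UMIs, so both were highest in labelled G1KO. Hk2 UMIs per 1000 marker UMIs were 50, 34.1 and 50.6 in endothelial cells. In macrophages the markers summed to 1161, 380 and 911 CPM in control E14.5, labelled G1KO and labelled dKO, so lowest in labelled G1KO. Hk2 in these cells stood at 72.9 (51.9 to 99.7), 97.6 (75.3 to 124) and 56.9 (35.2 to 87.0) CPM, from 39, 65 and 21 UMIs. These intervals overlap, and the median depth of the macrophages was 2362, 7012 and 3103 UMIs. Their Hk2 UMIs per 1000 marker UMIs were 62.8, 257 and 62.5. The part of free RNA in the ratios of interzone-like and myogenic cells was not tested.

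Chondrocyte-like cells of E14.5 with a UMI of Car9, a HIF target, held more Pfkp than those without. Car9 itself stood at 11.3, 44.7 and 23.7 CPM in control, labelled G1KO and labelled dKO, beside 1.17, 3.46 and 1.10 CPM in fibroblast-like cells. In ungated mesenchyme Car9 stood at 4.09, 37.0 and 28.3 CPM, the last above the chondrocyte-like cells of that library. Prehypertrophic-like cells held it at 2.41, 31.5 and 16.7 CPM. A single UMI can be free RNA, and in labelled G1KO 8 were counted in 64 erythroid cells. Cells with a Car9 UMI, 274, 619 and 493 of them, held Pfkp at 26.5, 49.1 and 37.0 CPM, and the other 3157, 2421 and 3139 cells at 12, 18.3 and 18.1 CPM. The log2 ratios were 1.14 (0.76 to 1.501), 1.43 (1.22 to 1.64) and 1.03 (0.80 to 1.26), above 0 in each library. Pfkl had 0.39, 0.52 and 0.40, Gpi1 0.33, 0.56 and 0.37, and Hk2 -0.02, 0.28 and 0.22. Over all mesenchymal cells Hk2 had ratios of 0.29 (0.16 to 0.42), 0.72 (0.67 to 0.77) and 0.52 (0.45 to 0.59) in the same libraries. Cells with a Car9 UMI are also deeper, with a mean of 10620.2, 12042 and 12294.5 UMIs against 9131, 8679.9 and 8799.9, and the parts of depth and of free RNA in these ratios were not tested.

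Genes with the pattern most like each member were sought among 8036 genes over 39 sums of a class in a library, by the correlation r of log2 CPM. The sums share libraries and cell types, so r is a description. Pfkp was nearest to P4ha2 (0.96), a collagen prolyl hydroxylase, Higd1a (0.95) and Ero1l (0.93), and Hk2 to S100b (0.91), Calml4 (0.89) and Golga2 (0.87). Pfkl was nearest to Minpp1 (0.92), the phosphoglycerate mutase Pgam1 (0.90) and Trappc6a (0.89), and Gpi1 to Lin7c (0.88), Ndufa6 (0.87) and Dnajc21 (0.86). Hk1 was nearest to Orai1 (0.88), Susd6 (0.74) and Zfp275 (0.74), and Pfkm to Efcab14 (0.79), Tmem230 (0.78) and Skiv2l (0.77). Among the regulators, Pfkfb3 was nearest to Pi4k2b (0.88), Tmem45a (0.86) and the triosephosphate isomerase Tpi1 (0.85), Pfkfb4 to Chst14 (0.93), Tmub2 (0.91) and Shisa5 (0.91), and Tigar to Cfl2 (0.81), Ddr1 (0.80) and Tead1 (0.79). Between members, r was 0.80 for Hk2 with Pfkp and 0.80 for Pfkfb3 with Pfkp, and lowest at -0.40 for Tigar with Pfkp.

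The members lie on 7 chromosomes of GRCm38, and Hk1 with Pfkl and Hk2 with Tigar share 1 each: Hk1 at chr10:62268855-62379908 and Pfkl at chr10:77986947-78010083, Hk2 at chr6:82725025-82774454 and Tigar at chr6:127085116-127109557, all on the minus strand. RefSeq promoters of GRCm38.p6, 250 bases before to 50 after a start site, were available for 9 of 9 members in 14 windows. The core motifs of HIF sites, ACGTG and GCGTG, were searched on both strands. ACGTG was in the windows of 4 members, GCGTG in those of 6, either in those of 7 and both in 1 window in those of 3. Counted by window, ACGTG was in 6 of 14, GCGTG in 7, either in 10 and both in 3, where 19.6%, 32.4%, 43.8% and 8.24% of all 32851 windows have them. Of the Pfkm windows, 2 overlap and share 1 GCGTG, which is counted in each. The windows of Hk2 and Pfkp are shown because these members were past 1.5-fold in chondrocyte-like cells of labelled G1KO. Hk2, at chr6:82774405-82774704 on the minus strand, has 2 ACGTG, and Pfkp, at chr13:6648722-6649021 on the minus strand, has 4 GCGTG. Capitals mark the motifs, written CACGT or CACGC where they lie on the other strand, and a match says nothing of whether HIF binds.
Hk2: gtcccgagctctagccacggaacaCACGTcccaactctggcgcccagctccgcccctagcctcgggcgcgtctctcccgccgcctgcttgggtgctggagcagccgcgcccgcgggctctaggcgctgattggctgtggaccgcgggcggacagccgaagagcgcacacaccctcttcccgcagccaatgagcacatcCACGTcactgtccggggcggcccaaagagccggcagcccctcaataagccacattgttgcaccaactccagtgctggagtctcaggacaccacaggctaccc
Pfkp: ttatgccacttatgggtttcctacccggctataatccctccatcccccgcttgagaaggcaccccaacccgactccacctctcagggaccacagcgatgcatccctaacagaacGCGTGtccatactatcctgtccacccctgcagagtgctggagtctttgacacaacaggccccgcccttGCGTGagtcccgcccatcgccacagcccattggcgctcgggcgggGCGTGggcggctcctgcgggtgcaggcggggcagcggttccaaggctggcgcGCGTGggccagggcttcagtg

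Each group is 1 library, from a number of embryos that is not stated, so no value has a replicate check, and differences between embryos, litters and preparations cannot be told apart from age or genotype. Ratios of classes with few cells, such as 302 interzone-like cells in labelled dKO and 324 chondrocyte-like cells at E13.5, have wide intervals for scarce members. Counts at the 3′ end measure RNA, not enzyme activity or flux through glycolysis.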

How the data were processed

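Cells of the presumptive knee joint of mouse embryos were counted in 4 libraries, 1 per group, with a 3′ kit. The authors called cells and counted UMIs with Cell Ranger 6.1.2, the version in the file headers, on mm10, and the deposited values are raw counts of UMIs per gene and cell. Cell Ranger and Seurat 3 are named in the labels. Whole numbers and unequal totals were checked: 100344565, 84188147, 97110697 and 91574038 UMIs in 12769, 9707, 11690 and 11602 barcodes, for control E13.5, control E14.5, labelled G1KO and labelled dKO. Kept cells have 200 to 6000 genes and no more than 10% mitochondrial UMIs. No doublet caller was run, and an alternative leaves out the 5% of cells with the most UMIs.

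Cells were assigned by marker lists written before the files were opened, with no member among the markers. Each mesenchymal list was scored per cell and standardized over the mesenchymal cells of all libraries. A class needed a score of at least 0.5 and a lead of 0.25, and interzone-like cells at least 1 Gdf5 UMI. A gate for glial or neuronal cells is not reported, because its cells also scored for cartilage. Classes with fewer than 50 cells have no value. UMIs were summed per class and library and scaled to CPM. A ratio of 2 sums carries the exact conditional 95% interval and a level the Poisson interval. A gene was tested with at least 50 UMIs in both sums together, and counted as higher or lower when the plain ratio reached 1.5-fold, which is no test of significance. Medians use a prior count of 0.5. Against 0 UMIs, 3 were taken as a floor. Python 3.11.15, numpy 2.4.6, pandas 2.3.3, scipy 1.17.1, R 4.3.3 and edgeR 4.0.16 (TMM) were used, and the ratios and intervals were tested on simulated data. Coordinates are from GENCODE M21, in which 32235 of 32285 identifiers were found.

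Named genes are the 9 members, Slc2a1 and Slc2a3, in each list and comparison at most the 3 furthest from 0, and for each member the 3 most correlated genes among those with a mean of at least 10 CPM over sums of at least 100 cells. The lists, written from general knowledge, are lower glycolysis (11 genes), other hexokinase, gluconeogenic and bifunctional enzyme genes (7), branches from glucose 6-phosphate and fructose 6-phosphate (15), HIF targets outside glycolysis (18) and p53 targets (10). Members and lists were chosen with earlier results on these data known. The rule for results of opposite direction in the 2 classes was set after the values had been seen. The alternatives were TMM factors, totals without mitochondrial, haemoglobin and collagen genes, 1000 to 6000 genes with at most 5% mitochondrial UMIs, the mean of CPM over single cells, a lead of 0.5, no cells with the most UMIs, no need of a Gdf5 UMI, any mesenchymal cell with a Gdf5 UMI as interzone, and, chosen after seeing the data, scores standardized within each library.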

Additional observations from a re-analysis of the deposited data

Results flagged for a closer look

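Gpi1, the isomerase between hexokinase and phosphofructokinase, lay on opposite sides of 0 in 2 cell classes of the same libraries, with each interval on its own side. For labelled dKO over the E14.5 control, its log2 ratio was 0.18 (95% interval 0.14 to 0.23) in chondrocyte-like cells and -0.38 (-0.57 to -0.19) in interzone-like cells. For labelled dKO over labelled G1KO, the ratios were 0.077 and -0.31. Across the 8 mesenchymal classes the interval to the control was above 0 in 5, up to a ratio of 0.52 in osteogenic-like cells, and below 0 in 1, the 302 interzone-like cells. To labelled G1KO it was above 0 in 6 and below 0 in 1. The difference was not tested, because each group is 1 library, and all 4 ratios are within 1.5-fold. Under the alternatives the ratios to the control ran from 0.15 to 0.35 and from -0.39 to -0.10, and those to labelled G1KO from 0.07 to 0.15 and from -0.33 to -0.05, with the same signs throughout.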

How the results depend on the processing

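Under 9 alternatives, changed one at a time, the 24 ratios of members past 1.5-fold gave 196 further values. All 196 had the same sign. The 24 were picked as past 1.5-fold in the same libraries that the alternatives use, so this is no check on other embryos. Of these, 192 rest on at least 50 UMIs, and 150 of the 192 were still past 1.5-fold. Of the 24 ratios, 10 were tested and past it under every alternative: Hk2 in interzone-like over chondrocyte-like cells at both ages, Pfkfb4 in that comparison at E14.5, Hk2, Hk1 and Pfkl with age in chondrocyte-like cells, Hk2 and Pfkl with age in interzone-like cells, and Hk2 and Pfkp for labelled G1KO in chondrocyte-like cells. For labelled dKO in interzone-like cells, Pfkm ran from -0.76 to -0.08 and Pfkfb3 from -0.63 to -0.03. Counts of members past 1.5-fold that moved by over 1.5 times follow, and then the smaller moves. The cause was not tested. Interzone-like over chondrocyte-like cells at E13.5: 2 as reported, 1 with any Gdf5-positive cell and 1 with scores standardized within each library. The same at E14.5: 3 as reported, 5 with TMM factors. Age in chondrocyte-like cells: 3 as reported, 5 with scores within each library. Labelled G1KO in interzone-like cells: 1 as reported, 0 with the mean over single cells, and 2 with the stricter cell filter, without the cells with the most UMIs or with scores within each library. Labelled dKO in chondrocyte-like cells: 2 as reported, 1 with TMM factors, the stricter filter, the mean over single cells or without the cells with the most UMIs, and 0 with scores within each library. Labelled dKO in interzone-like cells: 2 as reported, 1 with the mean over single cells or a lead of 0.5, and 0 with TMM factors, without the cells with the most UMIs, without the need of a Gdf5 UMI, with any Gdf5-positive cell or with scores within each library. Labelled dKO over labelled G1KO in chondrocyte-like cells: 2 as reported, 0 with TMM factors, and 1 with the stricter filter, a lead of 0.5 or scores within each library. The same in interzone-like cells: 3 as reported, 1 with a lead of 0.5, and 0 without the need of a Gdf5 UMI, with any Gdf5-positive cell or with scores within each library. Smaller moves: interzone-like over chondrocyte-like cells at E14.5, 2 with the stricter filter, a lead of 0.5, without the cells with the most UMIs or with scores within each library, where Tigar has 48, 49, 46 and 42 UMIs and was not tested. Age in chondrocyte-like cells, 4 with TMM factors, a lead of 0.5 or without the cells with the most UMIs. Age in interzone-like cells, 3 as reported, 2 without the need of a Gdf5 UMI or with any Gdf5-positive cell. Labelled dKO over labelled G1KO, 3 in chondrocyte-like cells with the mean over single cells, and 2 in interzone-like cells without the cells with the most UMIs. Depth limits the scarce members: Tigar was tested in 4 of 12 comparisons. No paired analysis was possible because each group is 1 library and the labels give no number that links libraries.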
